A study of Homo sapiens with 8 samples.

Results

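H3K9me3 intervals close to 6 kb in length were examined in PC9, a human lung adenocarcinoma line that carries an activating EGFR mutation. The members were chosen by length, as the autosomal intervals of 5800 to 6200 bp in each deposited list. They numbered 1707 of 50885 in drug-tolerant persisters given trichostatin A (DTP + TSA), 2138 of 45381 in drug-tolerant persisters (DTP) and 1044 of 23043 in untreated parental cells. Intervals of 4.8 to 5.2 kb (1609, 1519 and 1514 in DTP + TSA, DTP and parental cells) and of 6.8 to 7.2 kb (967, 1048 and 739) served as flanking lengths.

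H3K9me3 is the histone mark of constitutive heterochromatin and is laid over repeats and transposable elements as well as zinc finger gene clusters. LINE-1 is the most abundant autonomous transposable element of the human genome. A full-length copy is about 6 kb long, carries its promoter in the 5′ end, and encodes an RNA-binding protein and a reverse transcriptase with endonuclease activity. Most copies are cut short at the 5′ end. The study examined heterochromatin over such elements in drug-tolerant cells. No repeat annotation or genome sequence was used here, so no interval was identified as a LINE-1 copy. The intervals are called by their length throughout, and no sequence is shown.

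DTP are the PC9 cells that survived 1 uM of the EGFR inhibitor erlotinib for 8 days. DTP + TSA had received the same erlotinib treatment and also 5 hours of 50 nM trichostatin A, which blocks histone deacetylases. Parental cells received neither drug. The states compare surviving cells with the whole population from which they came, so selection and induced change cannot be told apart. Each state had 1 H3K9me3 library. Differences between states are therefore unreplicated and carry no p-value. Parentheses hold exact (Clopper-Pearson) 95% intervals of shares, or exact binomial 95% intervals of medians. They treat genomic intervals as independent and cover counting error only. Signal values are the authors' own and were compared within a list. The lists give no read totals, so the depth of each library is unknown. The median mean signal of the 6 kb intervals was 10.4 in DTP + TSA, 10.8 in DTP and 7.92 in parental cells. The part of these gaps in the results below was not tested.

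The length class stood out as a local maximum in both persister lists and was absent as a maximum from the parental list. In steps of 200 bp from 5600 to 6400 bp, DTP + TSA had 466, 559, 623, 525 and 472 intervals. DTP had 539, 668, 844, 626 and 524 intervals at the same steps. Parental cells had 406, 398, 318, 328 and 343. The first and last number of each run lie just outside the class. These numbers follow from the rule and are given as a description.

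**Figure D1:**
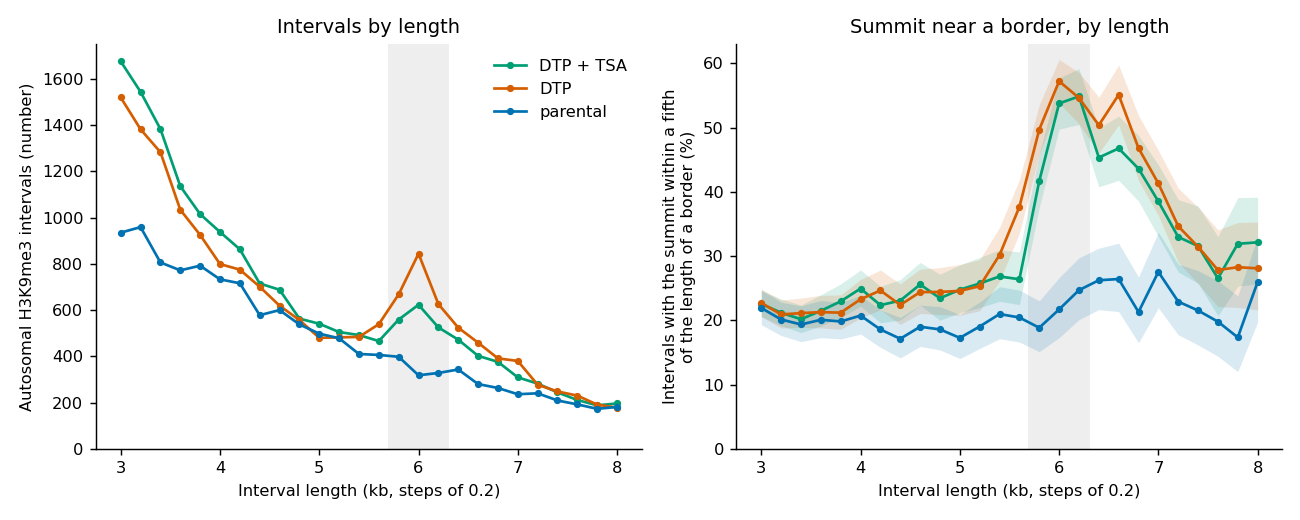
Left, number of autosomal H3K9me3 intervals at each length from 3 to 8 kb in the 3 libraries. Right, the share of intervals at each length whose summit lies within 20% of the length from a border, with 95% Clopper-Pearson bands, and the shaded strip marks the 6 kb class. In DTP + TSA and DTP both curves have a maximum near 6 kb (53.8% and 57.2% at 6000 bp), and parental cells are at 21.7% there.

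The peak of the signal lay near an end of the 6 kb intervals in both persister states and near the middle in parental cells. The summit, the position of the highest signal, was within 20% of the length of a border in 50.1% (47.7 to 52.5) of the 6 kb intervals in DTP + TSA. This share was 54.1% (52.0 to 56.2) in DTP. It was 21.6% (19.1 to 24.2) in parental cells. Such end parts make up 40% of an interval's length. The same share over all autosomal intervals was 23.6% in DTP + TSA, 25.5% in DTP and 21.4% in parental cells. The persister 6 kb intervals thus stood at more than the share of all lengths, and the parental ones near it.

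Flanking lengths did not show the same placement to the same degree. Intervals of 4.8 to 5.2 kb had the summit in an end part in 24.6% (22.5 to 26.8) of cases in DTP + TSA, 24.8% (22.6 to 27.0) in DTP and 18.3% (16.4 to 20.3) in parental cells. Intervals of 6.8 to 7.2 kb did so in 38.9% (35.8 to 42.0), 41.6% (38.6 to 44.7) and 23.8% (20.8 to 27.1) of cases in DTP + TSA, DTP and parental cells. In each persister list the interval of the 6 kb share overlapped neither flanking share. In parental cells it overlapped both.

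The outermost 10% at each border showed the contrast most clearly. In DTP + TSA 24.2% (22.2 to 26.3) of the 6 kb intervals had the summit there, against 8.58% of those of 4.8 to 5.2 kb and 11.3% of those of 6.8 to 7.2 kb. In DTP the shares were 29.0% (27.1 to 31.0) of the 6 kb intervals, 8.82% of the shorter and 11.9% of the longer ones. In parental cells they were 8.62% (6.99 to 10.5), 5.28% and 7.17%. The central 20% of the length held 16.2%, 12.9% and 31.4% of the summits of 6 kb intervals in DTP + TSA, DTP and parental cells. Of the summits in an end part, the one at the lower coordinates held 381 and the other 475 in DTP + TSA, or 44.5% (41.1 to 47.9) at the lower border. In DTP it held 586 against 571, or 50.6% (47.7 to 53.6), and in parental cells 90 of 225, or 40.0% (33.5 to 46.7). The lower border held 37.4%, 39.3% and 41.7% of the end-part summits of all intervals in DTP + TSA, DTP and parental cells.

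**Figure D2:**
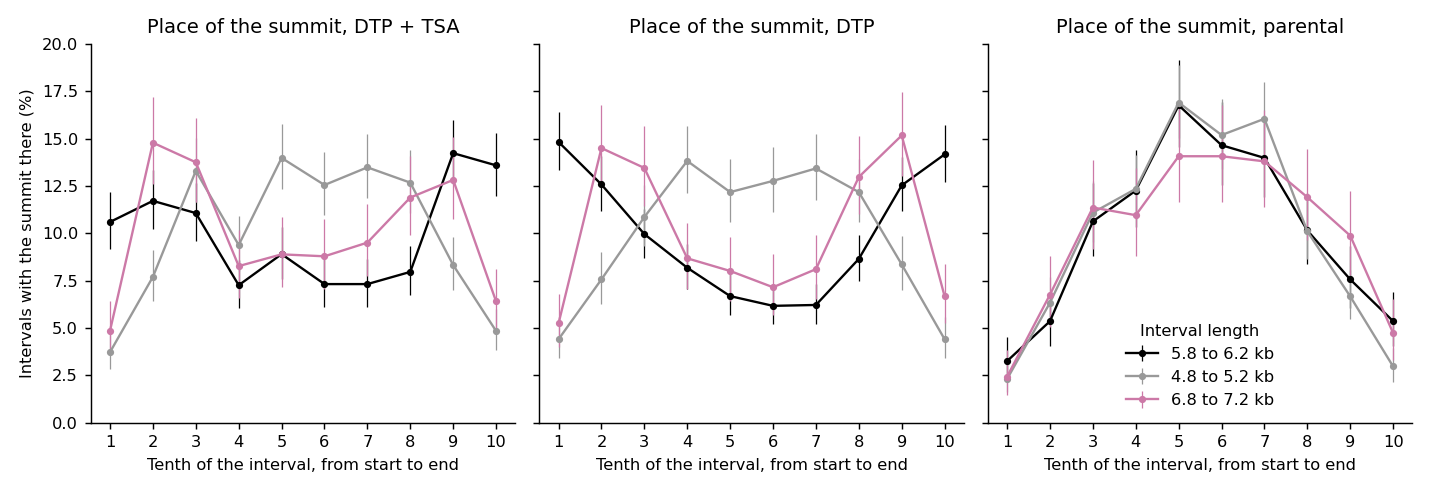
Share of intervals (vertical axis, %) whose summit falls in each successive 10% of the interval from its start to its end, for the 6 kb class and both flanking lengths in DTP + TSA, DTP and parental cells. Bars are 95% Clopper-Pearson intervals, and the 6 kb intervals are high at both borders in DTP + TSA and DTP and high in the middle in parental cells, where 31.4% have the summit in the central 20%.

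In base pairs, the median distance from the summit to the nearer border of a 6 kb interval was 1200 bp (1151 to 1263) in DTP + TSA. It was 1080 bp (1023 to 1152) in DTP and 1968 bp (1896 to 2047) in parental cells. The longer intervals of 6.8 to 7.2 kb had medians of 1631 bp in DTP + TSA, 1544 bp in DTP and 2151 bp in parental cells. In DTP the summits of these longer intervals were most frequent in the second and the ninth 10% of the length, with 14.5% and 15.2% of them, and those of the 6 kb class in the first and the last 10%, with 14.8% and 14.2%. In DTP + TSA the 6 kb class had 10.6% and 13.6% in the first and last 10%, below its 11.7% and 14.2% in the second and ninth. The longer DTP + TSA intervals had 4.86% and 6.41% in the first and last 10%, and 14.8% and 12.8% in the second and ninth. Intervals of 4.8 to 5.2 kb, although shorter, had medians of 1479, 1536 and 1687 bp in DTP + TSA, DTP and parental cells.

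Step by step in length, the share of summits in the end parts differed sharply between neighbouring lengths below 6 kb and less above it. In DTP + TSA it was 26.4% (22.4 to 30.6) at 5600 bp, 41.7% at 5800 bp, 53.8% at 6000 bp, 54.9% at 6200 bp and 45.3% at 6400 bp. In DTP it was 37.7% (33.6 to 41.9) at 5600 bp, 49.7%, 57.2% and 54.6% within the class and 50.4% at 6400 bp. At 6600 bp DTP still had 55.1% (50.4 to 59.7). The parental shares ran from 18.8% to 26.4% between 5600 and 6600 bp with no such step.

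In the persister lists the end-part share was above 40%, the part of the length, at each level of mean signal. The counting interval of the strongest DTP + TSA part reached below 40%. Each class was split by mean signal into strongest, middle and weakest parts of equal size. In DTP + TSA the end parts held the summit in 42.7% (38.6 to 46.9) of the strongest 569 of the 6 kb intervals, 56.8% of the middle and 51.0% of the weakest. In DTP these shares were 54.8% (51.1 to 58.5) of the strongest 713, 56.0% and 51.5%. In parental cells they were 14.4% (10.9 to 18.5) of the strongest 348, 21.8% and 28.4%, so the strongest parental intervals had the fewest summits near a border. The strongest part of the intervals of 4.8 to 5.2 kb stood at 15.6% in DTP + TSA, 18.3% in DTP and 10.7% in parental cells. That of 6.8 to 7.2 kb stood at 35.6% (30.4 to 41.1), 40.0% (34.8 to 45.3) and 20.2% (15.4 to 25.8). Among strong DTP + TSA intervals the 6 kb class thus overlapped the longer flanking length in its counting interval, also with equal numbers of the strongest intervals, at 43.9% (40.01 to 47.9) against 38.6% (34.1 to 43.2).

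Where a DTP interval of 6 kb met a parental interval, the parental summit also tended to lie near an end of it. This reading uses the summits of a library that did not choose the members. Parental intervals overlapped 902 of the 2138 DTP members, and in 51.2% (47.9 to 54.5) of these the parental summit fell in an end part of the DTP interval. The same share was 18.5% (15.8 to 21.4) for DTP intervals of 4.8 to 5.2 kb and 38.4% (34.6 to 42.4) for those of 6.8 to 7.2 kb, and 21.0% over all DTP intervals that overlapped the parental list. The parental intervals met there had a median length of 5000 bp and covered a median of 75.9% of the member, against 88.5% and 80.0% at the shorter and longer flanking lengths. An interval that covers an end alone also places its summit there, and the part of this in the share was not tested.

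The end chosen was mostly the same in both libraries. Among the 416 of these members with the DTP summit in an end part, the parental summit lay in the same end part in 288 or 69.2% (64.5 to 73.6) and in the opposite one in 47 or 11.3%. For DTP intervals of 4.8 to 5.2 kb the same-end share was 40.0% (32.1 to 48.3), and for those of 6.8 to 7.2 kb it was 50.0% (43.5 to 56.5). Summits within 200 bp of each other were found in 37.7% (34.5 to 40.9) of the 902 members, near the 40.3% of all DTP intervals that overlapped the parental list. In the other direction, the DTP summit fell in an end part of 23.8% (20.7 to 27.1) of the 698 parental members that overlapped DTP. This share was 16.2% and 22.5% at the shorter and longer parental flanking lengths and 19.2% over all such parental intervals.

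DTP and DTP + TSA shared the placement. DTP + TSA intervals overlapped 1917 DTP members, and the DTP + TSA summit fell in an end part of the member in 57.1% (54.8 to 59.3), against 24.7% (22.4 to 27.1) at 4.8 to 5.2 kb, 44.5% (41.4 to 47.7) at 6.8 to 7.2 kb and 24.0% over all DTP intervals that overlapped DTP + TSA. In the 1034 of these with the DTP summit in an end part, it was the same end in 60.8% (57.8 to 63.8) and the opposite end in 18.3% (16.0 to 20.8). The same end was named in 56.3% (50.6 to 61.9) of the shorter and 63.1% (58.2 to 67.8) of the longer flanking intervals. Over all such DTP intervals it was 52.1%. The class thus did not stand apart from the flanking lengths in the same-end share. The opposite end was named in 5.18% (2.99 to 8.27) of the shorter and 11.002% (8.14 to 14.4) of the longer flanking intervals. The summits lay within 200 bp of each other in 40.7% (38.5 to 43.0) of the members, below the 58.1% of all DTP intervals that overlapped DTP + TSA. In the other direction, for DTP + TSA members met by DTP, the DTP summit was in an end part in 46.6% (44.0 to 49.2), against 21.6% and 37.0% at the shorter and longer flanking lengths and 21.5% over all such intervals.

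The signal of DTP 6 kb intervals was flatter in the median than that of flanking lengths, though not in weak intervals. The ratio of summit value to mean value within an interval, which needs no scaling between libraries, had a median of 2.44 (2.42 to 2.47) in the DTP class. It was 2.64 (2.58 to 2.68) at 4.8 to 5.2 kb, 2.68 (2.63 to 2.73) at 6.8 to 7.2 kb and 2.12 over all DTP intervals, most of which are shorter. In DTP + TSA the class stood at 2.75 (2.70 to 2.79), against 2.83 (2.76 to 2.89) and 2.99 (2.93 to 3.06) at the shorter and longer lengths, so that the interval touched that of the shorter length. In parental cells the class was at 2.49 (2.46 to 2.53), between 2.45 (2.41 to 2.48) and 2.66 (2.61 to 2.72). In the strongest part of the class the ratio was 3.29 in DTP + TSA, 2.43 in DTP and 2.89 in parental cells, and in the weakest part it was 2.55, 2.46 and 2.30. The strongest DTP intervals of the shorter and longer flanking lengths were at 3.19 and 2.84 and the weakest at 2.42 and 2.58, so that among weak intervals the class lay above the shorter length.

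DTP intervals of 6 kb were met by a DTP + TSA interval about as often as flanking lengths were, and by a parental one less often. Overlap means at least 1 shared bp. A DTP + TSA interval met 89.7% (88.3 to 90.9) of the DTP members, against 88.2% and 93.6% at the shorter and longer flanking lengths and 72.1% of all DTP intervals. A parental interval met 42.2% (40.1 to 44.3), against 50.6%, 58.6% and 34.9%. Of the 2138 DTP members, 859 or 40.2% (38.1 to 42.3) overlapped both other lists, 1058 or 49.5% (47.3 to 51.6) DTP + TSA alone (not the parental list), 43 or 2.01% parental cells and not DTP + TSA, and 178 or 8.33% (7.19 to 9.58) neither. Over all autosomal DTP intervals these shares were 30.1%, 42.0%, 4.83% and 23.1%. Short intervals dominate that total, so flanking lengths are the closer measure. The share met by DTP + TSA alone was 40.8% (38.3 to 43.3) at 4.8 to 5.2 kb and 36.7% (33.8 to 39.7) at 6.8 to 7.2 kb, below that of the 6 kb class. The share in neither was 8.62% (7.26 to 10.2) and 4.68% (3.48 to 6.13). The share of members in neither depended on which intervals were kept. When each list was held to the same number of its strongest intervals, it was 11.2% in DTP + TSA, 26.9% in DTP and 51.9% in parental cells, and above the median mean signal of each list 13.6%, 33.0% and 33.5%. In these settings DTP lay above DTP + TSA, the reverse of the order of the full lists (12.2% in DTP + TSA and 8.33% in DTP).

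Of the 1707 DTP + TSA members, 769 or 45.0% (42.7 to 47.4) overlapped both other lists, 685 or 40.1% (37.8 to 42.5) DTP and not parental cells, 44 or 2.58% parental cells and not DTP, and 209 or 12.2% (10.7 to 13.9) neither. Over all autosomal DTP + TSA intervals the shares were 27.2%, 38.6%, 3.61% and 30.6%. Flanking lengths were found in neither other list more often, in 21.9% (19.9 to 24.0) at 4.8 to 5.2 kb and 17.5% (15.1 to 20.02) at 6.8 to 7.2 kb. They were found in DTP and not in parental cells less often, in 32.3% (30.04 to 34.7) and 28.4% (25.6 to 31.4). In all, DTP met 85.2% of the members and 65.8% of all DTP + TSA intervals, and parental cells met 47.6% and 30.8%.

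Of the 1044 parental members, 603 or 57.8% (54.7 to 60.8) overlapped both persister lists, 82 or 7.85% DTP + TSA and not DTP, 95 or 9.10% DTP and not DTP + TSA, and 264 or 25.3% (22.7 to 28.0) neither. Over all autosomal parental intervals the shares were 55.7%, 6.64%, 8.24% and 29.4%. The flanking lengths bracketed the class, with 53.3% and 61.3% in both persister lists and 29.9% and 23.004% in neither. DTP + TSA met 65.6% of the members and 62.3% of all parental intervals, and DTP met 66.9% and 63.9%.

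**Figure D3:**
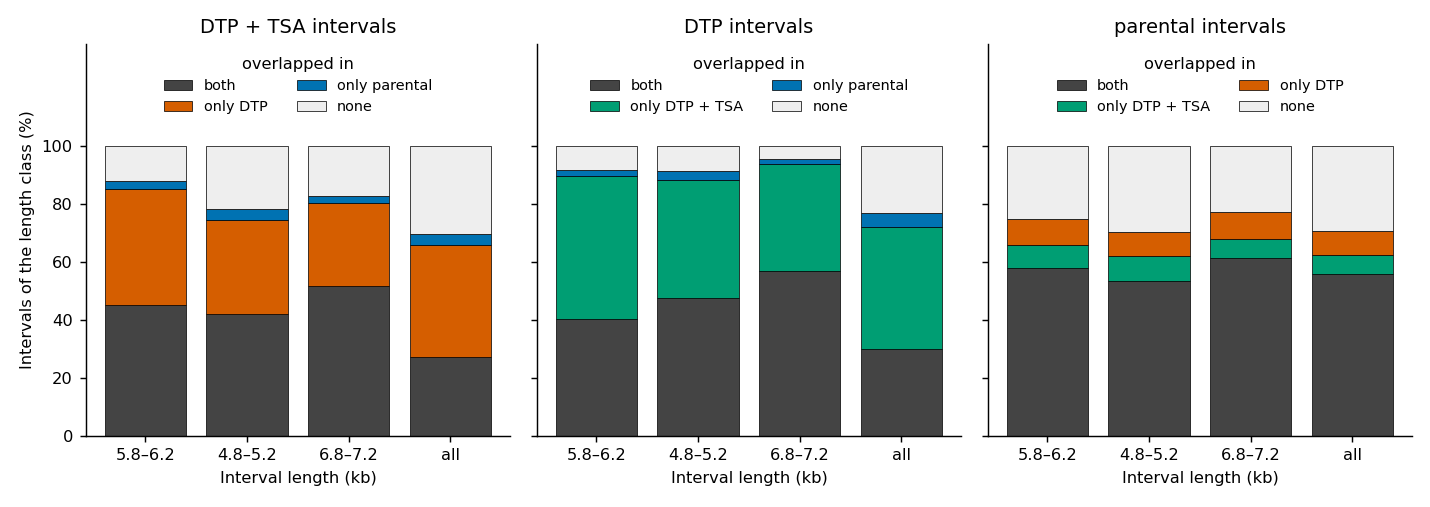
Share of intervals (vertical axis, %) of each length class in DTP + TSA, DTP and parental cells that overlap by at least 1 bp both other lists, 1 of them or none, beside all autosomal intervals of the list. In DTP the 6 kb class has the largest of the 3 length-class shares met by DTP + TSA alone, 49.5%.

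Summit placement went with the state pattern. Of the 1058 DTP members met by DTP + TSA alone, 59.9% (56.9 to 62.9) had the summit in an end part, and of the 178 found in neither other list 60.1% (52.5 to 67.4). Of the 859 present in all 3 lists 46.6% (43.2 to 50.0) did. The shorter DTP flanking length was at 27.6% met by DTP + TSA alone, 42.0% in neither and 19.2% in all 3 lists. The longer one was at 45.5%, 38.8% and 39.3% in the same order. All DTP intervals were at 25.6%, 28.9% and 22.8%. A higher share in intervals met by DTP + TSA alone than in all 3 lists was thus not particular to the 6 kb class. In DTP + TSA the 209 members found in no other list were at 29.2% (23.1 to 35.9), far below the 56.5% (52.7 to 60.2) of the 685 shared with DTP and not with parental cells. Flanking lengths with the same pattern, found in DTP + TSA alone, were at 26.1% (21.6 to 31.1) and 32.5% (25.5 to 40.2).

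The 6 kb outline itself was shared between the persister lists far more often than with parental cells. Among the 1454 DTP + TSA members that overlapped DTP, 515 or 35.4% (33.0 to 37.9) were met by a DTP interval of the class. A DTP interval of the 6 kb class met 8.19% and 11.9% of the shorter and longer flanking intervals that overlapped DTP. For all DTP + TSA intervals that overlapped DTP this share was 6.63%. The flanking and all-interval shares in this paragraph count counterparts of 5.8 to 6.2 kb, not of the interval's own length. They therefore do not show whether flanking lengths kept their own outline less often. Among the 1917 DTP members that overlapped DTP + TSA, 513 or 26.8% (24.8 to 28.8) were met by a DTP + TSA interval of the class, against 6.19% and 11.2% at the flanking lengths and 4.59% of all such DTP intervals. Among the 902 DTP members that overlapped parental cells, 70 or 7.76% (6.10 to 9.70) were met by a parental interval of the class. A parental 6 kb interval met 7.55% and 5.86% at the flanking lengths and 4.55% of all such DTP intervals. Of the 698 parental members that overlapped DTP, 70 or 10.0% (7.90 to 12.5) were met by a DTP interval of the class, against 7.30% and 8.64% at the flanking lengths and 5.97% of all such parental intervals.

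Both borders of a DTP member lay within 200 bp of those of its DTP + TSA counterpart in 26.6% (24.6 to 28.6), against 14.4% (12.6 to 16.4) at 4.8 to 5.2 kb and 16.0% (13.8 to 18.5) at 6.8 to 7.2 kb. Over all such DTP intervals the share was 27.5%, near that of the members. The part of interval length in this was not tested. With parental counterparts the share was 4.99% (3.66 to 6.62) for members and 8.56% for all DTP intervals that overlapped the parental list. The summit-side border was matched in DTP + TSA in 59.1% (56.9 to 61.3) of DTP members and the other border in 45.3% (43.0 to 47.5). At 4.8 to 5.2 kb these shares were 48.1% and 31.5%, and at 6.8 to 7.2 kb 43.6% and 36.6%. Over all DTP intervals that overlapped DTP + TSA they were 57.2% and 45.2%, near those of the members.

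A part of the DTP 6 kb intervals was met by several DTP + TSA intervals, mostly with a break near the middle. The lengths of these DTP + TSA intervals were not examined, and they may reach beyond the member. Of the 1917 DTP members that overlapped DTP + TSA, 334 or 17.4% (15.7 to 19.2) were met by several DTP + TSA intervals, and 332 of them by 2 intervals. The share was 4.78% (3.70 to 6.06) at 4.8 to 5.2 kb, 14.2% (12.0 to 16.5) at 6.8 to 7.2 kb and 5.28% over all DTP intervals that overlapped DTP + TSA. The break lay in the central 20% of the member in 62.6% of the 334, against 43.8% of the 64 and 43.9% of the 139 broken intervals of the shorter and longer flanking lengths. Its median length was 1000 bp. The reverse was rarer, since DTP + TSA members were met by several DTP intervals in 5.57% (4.45 to 6.88), against 3.15% of all DTP + TSA intervals that overlapped DTP. Parental intervals broke DTP members in 3.44% (2.35 to 4.84), against 2.93% of all DTP intervals that overlapped the parental list. The share for DTP members in DTP + TSA was 4.63% when each list was held to the same number of its strongest intervals and 5.56% above the median mean signal of each list, where the flanking lengths were at 1.34% and 5.63%, and at 1.84% and 7.01%.

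**Figure D4:**
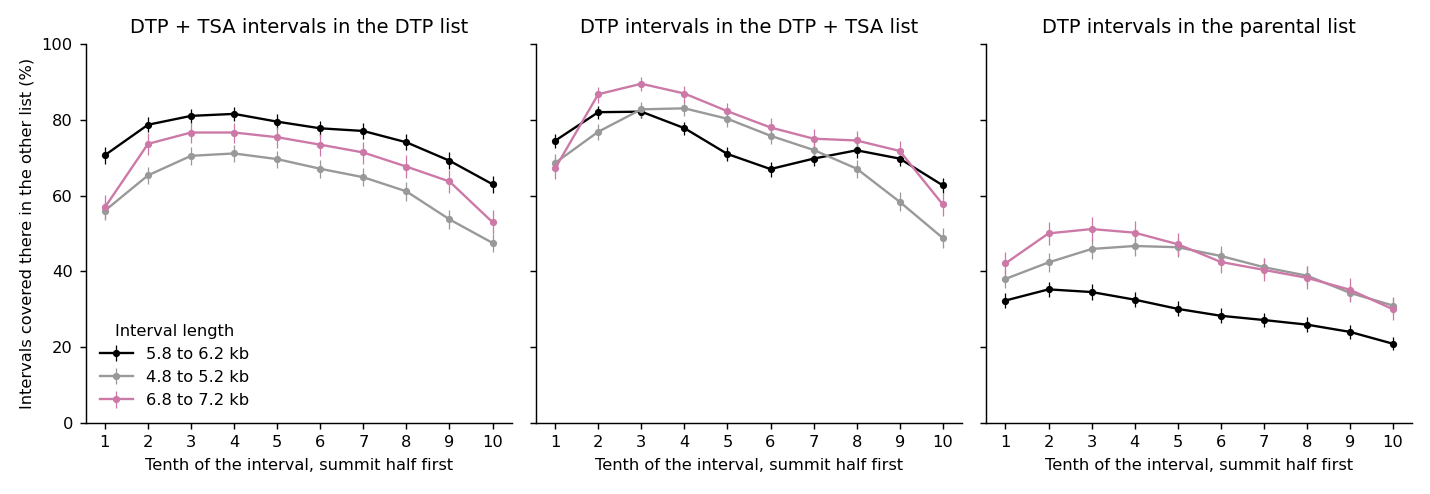
Share of intervals (vertical axis, %) covered by another list at 10 points along their length, with the summit side of each interval placed first, for DTP + TSA members in the DTP list and DTP members in the DTP + TSA and parental lists. Bars are 95% Clopper-Pearson intervals, and in the middle panel the 6 kb class dips to 67.0% just past the centre and returns to 71.9% before the far border.

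The same break showed in the coverage of DTP members along their length. DTP + TSA covered 82.0% (80.3 to 83.6) of the members at 15% of the length from the summit-side border. It covered 67.0% (64.9 to 69.0) at 55% and 71.9% (70.0 to 73.8) at 75%. At 4.8 to 5.2 kb coverage at the same points was 76.8%, 75.8% and 67.1%, without a dip, and at 6.8 to 7.2 kb it was 86.7%, 78.0% and 74.5%. Parental intervals covered 35.2% (33.2 to 37.3) of the DTP members at 15% of the length, 28.3% at 55% and 25.9% (24.1 to 27.8) at 75%, a slope with its high side at the summit.

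Chromosome 19 held the densest DTP + TSA class, and chromosomes 5, 7 and 19 the densest DTP class. In members per Mb, all autosomes together had 0.592 in DTP + TSA, 0.742 in DTP and 0.362 in parental cells. Chromosome 19, the richest in zinc finger gene clusters, had 1.49, 1.10 and 0.507 per Mb in DTP + TSA, DTP and parental cells. Chromosome 5 had 0.801, 1.17 and 0.442 per Mb, and chromosome 7 had 0.804, 1.11 and 0.522. Chromosome 21 was sparsest in each list, with 0.249, 0.291 and 0.0623 per Mb, or 12, 14 and 3 members. For intervals of any length, chromosome 19 was densest in each list, at 41.2, 27.9 and 13.2 per Mb. Chromosome 21 was sparsest for them in both persister lists, at 11.03 in DTP + TSA and 8.39 in DTP. In parental cells it was at 5.34, above chromosome 15 at 5.03. The rank of chromosome 19 in DTP + TSA, and of chromosome 21 in both persister lists, was thus not particular to the 6 kb class.

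**Figure D5:**
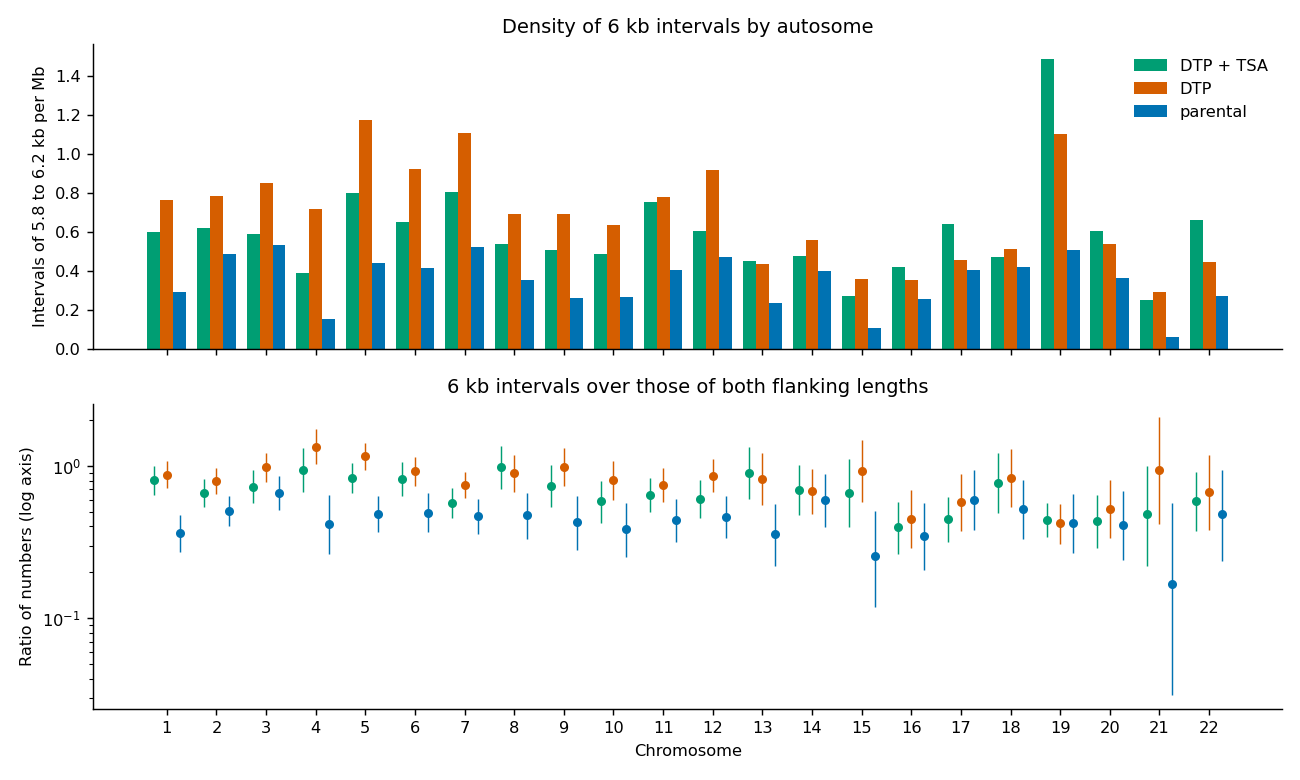
Top, intervals of 5.8 to 6.2 kb per Mb of each autosome in DTP + TSA, DTP and parental cells. Bottom, their number over that of both flanking lengths together on the same autosome (log axis, 95% intervals from the exact binomial share), which is highest in DTP on chromosome 4 at 1.33 and lowest there on chromosome 19 at 0.42.

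Set against flanking lengths on the same chromosome, chromosome 4 stood highest in DTP and chromosome 19 lowest. The ratio of 6 kb intervals to both flanking classes together was 0.663 in DTP + TSA, 0.833 in DTP and 0.463 in parental cells over all autosomes. On chromosome 4, one of the most gene-poor autosomes, it was 0.94 (0.67 to 1.301) in DTP + TSA, 1.33 (1.02 to 1.73) in DTP and 0.42 (0.26 to 0.65) in parental cells. On chromosome 19 it was 0.44 (0.34 to 0.57), 0.42 (0.31 to 0.56) and 0.42 (0.27 to 0.66). Chromosome 19 was thus dense in all these lengths.

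The placement of the summit divided the same chromosomes. On chromosome 4 it was in an end part in 68.0% (56.2 to 78.3) of 75 DTP + TSA members, 68.6% (60.1 to 76.3) of 137 DTP members and 16.7% (5.64 to 34.7) of 30 parental members. On chromosome 19 these shares were 19.3% (11.7 to 29.1) of 88, 15.4% (7.63 to 26.5) of 65 and 26.7% (12.3 to 45.9) of 30. Chromosome 19 had the lowest share of the 22 autosomes in both persister lists. Chromosomes 16, 17 and 20, which are gene-dense, had 39.5%, 34.6% and 28.9% in DTP + TSA and 40.6%, 37.8% and 35.3% in DTP. All intervals did not divide chromosomes 4 and 19, at 25.7% and 26.3% in DTP + TSA and 26.98% and 26.3% in DTP. The longer flanking length was at 58.3% (36.6 to 77.9) and 27.6% (18.5 to 38.2) there in DTP + TSA. In DTP it was at 51.5% (33.5 to 69.2) and 42.4% (30.3 to 55.2). The shorter one was at 26.8% on each in DTP + TSA, and at 25.7% and 17.98% in DTP. Where the flanking lengths leaned the same way, their counting intervals overlapped.

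Numbers of members differed between states by chromosome, and in part as those of all intervals did. DTP over parental was above 1 on all 22 autosomes, with 2.05 over all of them against 1.97 for intervals of any length. With equal numbers of the strongest intervals there were 1164 members in DTP and 1044 in parental cells. The ratio was 4.57 (3.06 to 7.03) on chromosome 4, 4.67 (1.302 to 25.3) on chromosome 21 with 14 and 3 members, and 1.12 (0.682 to 1.85) on chromosome 17, where intervals of any length gave 2.60, 1.57 and 1.83. DTP + TSA over DTP was 0.798 over all autosomes, against 1.12 for intervals of any length, and above 1 on 6, which were chromosomes 13, 16, 17, 19, 20 and 22. It was lowest on chromosome 4 at 0.547 (0.407 to 0.731), with 75 members in DTP + TSA and 137 in DTP, and there intervals of any length were at 0.904. On chromosome 22 it was 1.48 (0.846 to 2.63), with 34 and 23 members, and on chromosome 19 it was 1.35 (0.971 to 1.90), so that both counting intervals reached below 1. Intervals of any length were at 1.72 and 1.48 on these chromosomes, above the class.

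The class lay farther from chromosome ends than flanking lengths did in both persister lists. More than 20 Mb from an end lay 65.1% (62.8 to 67.4) of the members in DTP + TSA, 76.4% (74.5 to 78.2) in DTP and 67.0% (64.0 to 69.8) in parental cells. At 4.8 to 5.2 kb the shares were 55.9%, 68.2% and 66.8%, and at 6.8 to 7.2 kb they were 55.9%, 70.6% and 65.0%. Over all intervals they were 64.2%, 71.4% and 68.4%, close to the members in DTP + TSA and parental cells and below them in DTP. Members within 5 Mb of an end made up 15.99% (14.3 to 17.8) in DTP + TSA, 7.203% (6.14 to 8.38) in DTP and 10.3% (8.56 to 12.4) in parental cells. The shares within 5 Mb were 21.8%, 13.0% and 10.9% at 4.8 to 5.2 kb and 24.1%, 13.9% and 10.8% at 6.8 to 7.2 kb. Over all intervals they were 13.9%, 9.23% and 9.84%. Summits in an end part were less frequent within 5 Mb of an end. They were found in 33.3% (27.8 to 39.3) of 273 members in DTP + TSA and 33.1% (25.8 to 41.1) of 154 in DTP. Beyond 20 Mb they were at 57.2% (54.2 to 60.1) and 57.6% (55.1 to 60.0). Parental cells had 18.5% (11.7 to 27.1) and 22.03% (19.0 to 25.3). In DTP + TSA the longer flanking length was at 25.8% within 5 Mb and 45.3% beyond 20 Mb. In DTP it was at 24.7% and 46.4%. The shorter one was also lower within 5 Mb in both persister lists, in DTP at 17.8% against 26.4%. Over all intervals the shares were 24.0% and 23.9% in DTP + TSA and 22.2% and 26.5% in DTP. The lower share near an end was thus not particular to the 6 kb class.

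Members lay far from each other, as intervals of the flanking lengths did. Their distance to intervals of any length differed from that of other lengths in different directions by state. The median gap to the nearest other 6 kb interval was 317 kb (283 to 341) in DTP + TSA, 307 kb (285 to 333) in DTP and 521 kb (477 to 596) in parental cells, in the order of their numbers. Another member lay within 100 kb of 22.5%, 23.8% and 19.2% of them. At 4.8 to 5.2 kb the gap to the nearest of the same length was 280, 386 and 381 kb. At 6.8 to 7.2 kb it was 519, 531 and 704 kb. The shares within 100 kb were 28.3%, 20.4% and 20.4% at the shorter length and 21.3%, 19.0% and 14.5% at the longer. The fullest windows of 1 Mb held 7, 7 and 5 members. Those of the shorter length held 8, 8 and 6 and those of the longer 6, 8 and 4. The nearest interval of any length was a median of 9.80 kb away (8.80 to 10.8) in DTP + TSA, 14.6 kb (13.6 to 15.6) in DTP and 13.4 kb (11.4 to 15.4) in parental cells. Over all intervals this gap was 10.6, 13.0 and 18.4 kb in DTP + TSA, DTP and parental cells. It was 6.60, 10.8 and 16.7 kb at 4.8 to 5.2 kb and 6.40, 9.80 and 13.6 kb at 6.8 to 7.2 kb. Members thus had a wider gap than all intervals in DTP and a narrower one in parental cells. An interval within 5 kb was found beside 34.4%, 24.4% and 31.2% of the members in DTP + TSA, DTP and parental cells, against 33.9%, 29.0% and 26.8% of all intervals.

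Members of the 3 lists that overlapped each other were joined into 4261 places in the genome. At 25 of them all 3 lists had a 6 kb interval, at 489 DTP + TSA and DTP had one, at 43 DTP + TSA and parental cells, and at 45 DTP and parental cells. The other places had a 6 kb interval in 1 list, 1149 in DTP + TSA, 1579 in DTP and 931 in parental cells. Many of these were met by intervals of other lengths. Only 12.2% of DTP + TSA, 8.33% of DTP and 25.3% of parental members overlapped neither other list. Over all intervals these shares were 30.6%, 23.1% and 29.4%. Flanking lengths were not joined in this way. Start and end were identical in DTP + TSA and DTP for 156 intervals. Of these, 70.5% (62.7 to 77.5) had the summit in an end part in DTP + TSA and 66.0% (58.0 to 73.4) in DTP.

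In 3 places the borders were identical in all 3 lists. At chr1:101285401-101291600 on hg19 (1p21.2, 6200 bp) the mean signal was 16.3 in DTP + TSA, 22.03 in DTP and 9.37 in parental cells, and the summits lay 1295, 2248 and 1000 bp from the nearer border. At chr9:110789001-110795200 (9q31.2, 6200 bp) the mean signal was 12.9, 19.5 and 7.13 in the same order. All 3 summits were near its upper border there, at 687 bp in DTP + TSA, 991 bp in DTP and 767 bp in parental cells. At chr6:126879801-126885600 (6q22.32, 5800 bp) the mean signal was 10.6, 13.9 and 6.58, with summits 1565, 1992 and 392 bp from the lower border. Signal is not scaled between lists, so the order of these values is not a comparison of states.

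The 3 strongest members of each list are named here. The highest mean signal was at chr16:33237001-33243200 in DTP + TSA (16p11.2, 868), at chr16:33864401-33870200 in DTP (16p11.2, 299.6) and at chr16:33864201-33870200 in parental cells (16p11.2, 320.01), the last 2 at the same place. The next in DTP + TSA were chr1:115899801-115906000 (1p13.2, 118.8) and chr5:26232201-26238400 (5p14.1, 117.2). In DTP they were chr5:645601-651600 (5p15.33, 122.6) and chr7:1923801-1930000 (7p22.3, 89.1), and in parental cells chr5:1926801-1932800 (5p15.33, 92.2) and chr12:29942601-29948800 (12p11.22, 91.2). The summit of these 9 intervals lay 1039 to 3080 bp from the nearer border, and 1 of the 9 had it in an end part, a count too small to set against the shares above. Each of the 9 except the one in 12p11.22 was met by an interval in both other lists.

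Within each list, members found in that list alone were weaker in the median than those that overlapped both other lists. Their median mean signal was 8.44 against 11.9 in DTP + TSA, 7.55 against 12.8 in DTP and 6.78 against 8.78 in parental cells. Intervals of any length went the same way, at 10.2 against 13.3, 8.17 against 13.2 and 6.94 against 9.38. The strongest members found in 1 list alone lay in DTP at chr2:184038601-184044600 (2q32.1), chr7:54109001-54115000 (7p11.2) and chr10:46989401-46995200 (10q11.22), with mean signals of 13.4, 12.2 and 11.8. In DTP + TSA they lay at chr7:154566601-154572600 (7q36.2), chr2:91843201-91849400 (2p11.1) and chr2:42564601-42570400 (2p21), with 24.5, 22.3 and 21.9. In parental cells they were the 12p11.22 interval, chr7:100634001-100640000 (7q22.1) and chr3:170625801-170631600 (3q26.2), with 91.2, 22.8 and 13.7. The closest neighbours of the class were 800 bp apart, the smallest gap the lists hold. They lay at chr9:99517001-99523000 and chr9:99523801-99529800 (9q22.33) in DTP + TSA, at chr1:169369801-169376000 and chr1:169376801-169383000 (1q24.2) in DTP, and at chr12:115447801-115453600 and chr12:115454401-115460400 (12q24.21) in parental cells. In 9q22.33 a parental interval of 41400 bp spanned both members.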

How the data were processed

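H3K9me3 ChIP-seq of PC9 cells in 3 states gave 1 deposited list of enriched intervals per state. The other 2 H3K4me3 and 3 input samples were not analysed here. Per the submitters' processing notes, BWA and SICER and the builds hg19 and dm3 were involved, with no version stated. How inputs entered the calls, which threshold was set and how libraries were scaled is not given in the sources used here. Per the file headers, each interval has a summit position, a summit value and a mean value, which are the authors' signal. A deeper library or a looser threshold can lengthen, join or add intervals, and the lists carry no read totals.

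Interval lengths were multiples of 200 bp. Coordinates are 1-based on hg19. Summit place is the distance from start to summit over the length. Bands and chromosome lengths came from circlize 0.4.16 under R 4.3.3. The remaining work was done in Python 3.11.15 (pandas 2.3.3, numpy 2.4.6, matplotlib 3.10.9, scipy 1.17.1). Functions were tested on 2000 simulated intervals, and 9 of 9 checks passed. Named regions are the 3 strongest members of each list, the 3 strongest found in that list alone, those with the same borders in all 3 lists (at most the 5 strongest) and the closest pair, without chromosome 8. No hg19 gene annotation was used, so no genes are named. The length class, the flanking lengths and the measures were chosen with earlier results of these data known. Medians and shares were recomputed under 6 settings of which intervals were kept and 2 of the overlap rule.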

Additional observations from a re-analysis of the deposited data

Results flagged for a closer look

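Chromosome X was outside the autosomal comparisons. It held 55 intervals of the 6 kb class in DTP + TSA, 113 in DTP and 26 in parental cells, of 2077, 2439 and 772 intervals of any length there, so that some of this length were bound to be present. In DTP + TSA 33 or 60.0% (45.9 to 73.0) of them had the summit in an end part, in DTP 67 or 59.3% (49.6 to 68.4), and in parental cells 7 or 26.9% (11.6 to 47.8). Intervals of 4.8 to 5.2 kb on X were at 18.6% (8.39 to 33.4) of 43, 36.7% (24.6 to 50.1) of 60 and 23.7% (11.4 to 40.2) of 38 in the same order. Those of 6.8 to 7.2 kb were at 44.4% (21.5 to 69.2) of 18, 37.1% (21.5 to 55.1) of 35 and 38.9% (17.3 to 64.3) of 18. The counting intervals of this longer length overlapped those of the 6 kb class in all 3 lists. These values come from intervals that played no part in the autosomal shares, in the same libraries. Chromosome Y held 0, 1 and 2 members.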

How the results depend on the processing

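Of 270 values recomputed under other settings, 154 stayed within their counting interval (or within 1.5 times, for numbers) and 116 moved. The share of summits in the end parts ran from 43.9% to 53.8% in DTP + TSA, 50.7% to 57.2% in DTP and 14.7% to 22.2% in parental cells. Including chromosomes X and Y, or removing intervals in centromeric, variable and stalk bands, moved none of the values below. Values are given for DTP + TSA, DTP and parental cells in that order where 3 stand together.

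At exactly 6000 bp there were 623, 844 and 318 intervals, with a median summit distance to the nearer border of 0.188, 0.159 and 0.341 of the length, and 9.15%, 8.53% and 5.66% had another within 100 kb. The DTP summit over mean signal was 2.41, and 71.1% of the parental intervals lay over 20 Mb from an end. A counterpart of the same length was met by 17.6% of DTP + TSA members in DTP, 12.5% of DTP members in DTP + TSA and 2.06% in parental cells. At 5600 to 6400 bp there were 2645 DTP + TSA and 1793 parental intervals. The summit distance was 0.219 in DTP + TSA and 0.197 in DTP, 42.5% of the DTP intervals met both other lists, and counterparts were met by 42.3%, 32.3% and 13.1%. Another member within 100 kb was found for 32.6%, 31.6% and 30.01%.

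With the 23842 strongest intervals of each list there were 633 members in DTP + TSA and 1164 in DTP, with summit distances of 0.227 and 0.169. Both other lists were met by 55.5%, 33.8% and 28.2%. The summit over mean signal was 3.19 in DTP + TSA. Chromosome 4 held 3.32% in DTP + TSA and 5.33% in DTP, 10.3% and 17.4% had another member within 100 kb, and 62.7% of the DTP + TSA members lay over 20 Mb from an end. Above the median mean signal of each list there were 736, 1165 and 489 members with summit distances of 0.215, 0.169 and 0.356. Both other lists were met by 37.1%, 25.8% and 46.6%, and 11.01%, 17.5% and 10.2% had another member within 100 kb. The summit over mean signal was 3.09 in DTP + TSA and 2.77 in parental cells, chromosome 4 held 3.26% in DTP + TSA and 5.32% in DTP, 28.9% of DTP members met a 6 kb interval in DTP + TSA, and 61.8% of the parental members lay over 20 Mb from an end.

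With at least 50% of the member overlapped, both other lists were met by 32.0%, 25.96% and 41.0%, and a 6 kb counterpart by 31.6% of DTP members in DTP + TSA and 11.04% in parental cells. With 50% of both intervals, both other lists were met by 24.8%, 19.7% and 33.1%, and a 6 kb counterpart by 40.4% of DTP + TSA members in DTP, 37.8% of DTP members in DTP + TSA and 13.5% in parental cells. Stricter settings keep fewer intervals or count fewer overlaps by construction, and other causes were not tested. No paired analysis was possible because each state has 1 library and the labels give no replicate numbers, and for the same reason no library could be left out. The unknown depth of the libraries limits every comparison of states.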
